A study of Mus musculus with 2 samples.

Results

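The genes described here are the nuclear-encoded genes of the mitochondrial respiratory chain and ATP synthase, 85 of the 27998 genes listed in a single-cell RNA sequencing data set of newborn mouse cortex. They were chosen by symbol alone, as Nduf genes of the a, b, c, s and v series, Cox4 to Cox8, Uqcr, Sdha to Sdhd and Atp5 genes, with the assembly factor Coa3 added by name. The choice covered 37 genes named for complex I, 4 for complex II, 8 for complex III, 18 for complex IV, 15 for complex V and Coa3, while Atp5s and Atp5sl carry the Atp5 name and are not subunits of the enzyme. Among them, 82 had at least 100 UMIs over all cells kept. The other 3 were Cox7b2 with 30 UMIs in the WT and 14 in the cKO library, Cox8c with 0 and 1, and Cox8b with 0 in both.

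Respiratory complexes I, III and IV pump protons across the inner mitochondrial membrane as electrons pass from NADH to oxygen, complex II feeds in electrons from succinate, and complex V uses the proton gradient to make ATP. Complexes I, III, IV and V are mosaics, with some subunits encoded in mitochondrial DNA and many more in the nucleus, whereas complex II is wholly nuclear. Those encoded in mitochondrial DNA are core subunits in I, III and IV and membrane subunits in V. Newborn cortex holds glycolytic dividing progenitors beside neurons that rely increasingly on oxidative phosphorylation.

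The data came from 2 libraries on the C57BL/6 background, 1 WT and 1 from mice of the genotype STINGf/f;Nestin-Cre (cKO), both taken at P0, the day of birth, from tissue labelled telencephalic and prepared with 10x Genomics chemistry. The cKO mice carry floxed STING alleles, and Cre is driven by nestin regulatory sequence, which is active in neural stem and progenitor cells. STING, encoded by Tmem173, is an adaptor of cytosolic DNA sensing, and the sequencing was done to characterise the abnormal cKO cortex. How many animals or litters went into each library was not given in the sources used here, so genotype, animal, litter, sex and library preparation cannot be told apart, no test between the genotypes was possible, and every interval below is a 95% interval that covers counting error only.

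The libraries held 10715 and 9198 barcodes with 69554624 and 67448785 UMIs in WT and cKO, of which 6615 and 5973 cells were kept, with median depths of 6560 and 7537 UMIs. A share of 35.9% of WT and 32.9% of cKO barcodes exceeded the limit of 10% mitochondrial UMIs and was left out. The libraries had 19 barcodes in common, 8 of them among kept cells. Tmem173 UMIs numbered 128 for WT and 18 for cKO among all cells kept, but 0 in neuron-like cells of both libraries, so the deletion could not be checked there. WT held 7 in progenitor-like and 9 in radial glia/astrocyte-like cells, where cKO held 0 in both. Most Tmem173 UMIs of WT and all of those of cKO thus lay in other cells. Endothelial-like cells (179 in WT and 72 in cKO) and microglia-like cells (72 and 36) were fewer in cKO, and the part of cell numbers in these totals was not tested. Xist, the RNA that coats the silenced X of females, counted 10 UMIs in WT and 71349 in cKO, so the libraries also differed in sex. Cells were clustered without the respiratory chain genes and named from marker genes, and 3 main classes were compared. These were neuron-like cells (3802 in WT and 3679 in cKO), progenitor-like cells (1047 and 934, intermediate and cycling progenitors together) and radial glia/astrocyte-like cells (653 and 488). The make-up of the progenitor class differed, with 651 intermediate and 396 cycling cells in WT against 701 and 233 in cKO. Of 7 intermediate progenitor markers, 6 in WT and 5 in cKO were higher in those cells than in the rest of the library. The markers of glutamatergic neuron-like cells, the most numerous class, summed to 4500 CPM (a gene's UMIs over all UMIs of the class, on a common scale) in WT and 3298 in cKO there, against 731 and 830 in the other cells.

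The promoters of 6 members are shown, because they belong to isoform sets whose members differed between cell classes (Atp5g1 to Atp5g3, Cox6b1 and Cox6b2) or, for Coa3, to the member that differed most between libraries. Each is 280 bases of RefSeq sequence on GRCm38.p6, from 250 bases before to 30 after the annotated start, written 5′ to 3′ on the minus strand that all 6 genes are on. The windows are chr11:96075602-96075881 for Atp5g1, chr15:102671018-102671297 for Atp5g2, chr2:73911297-73911576 for Atp5g3, chr7:30626085-30626364 for Cox6b1, chr7:4753065-4753344 for Cox6b2 and chr11:101278919-101279198 for Coa3. Capitals mark a match on either strand to the NRF1 motif (GCGC and TGCGC with 1 free base between them), the ETS motif CCGGAAG bound by GABPA, the YY1 motif AAGATGGCG or the ERRA motif TCAAGGTCA.
Atp5g1: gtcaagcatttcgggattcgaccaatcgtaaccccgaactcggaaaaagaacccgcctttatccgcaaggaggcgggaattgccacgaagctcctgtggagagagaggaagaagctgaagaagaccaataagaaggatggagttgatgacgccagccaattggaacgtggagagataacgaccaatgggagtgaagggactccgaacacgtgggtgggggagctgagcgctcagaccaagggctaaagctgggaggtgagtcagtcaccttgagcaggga
Atp5g2: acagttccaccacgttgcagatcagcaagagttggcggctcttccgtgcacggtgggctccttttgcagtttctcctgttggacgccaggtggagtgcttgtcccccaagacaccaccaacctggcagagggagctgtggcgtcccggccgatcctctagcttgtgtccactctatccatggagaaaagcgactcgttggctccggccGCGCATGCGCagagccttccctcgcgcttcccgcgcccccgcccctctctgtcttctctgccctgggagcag
Atp5g3: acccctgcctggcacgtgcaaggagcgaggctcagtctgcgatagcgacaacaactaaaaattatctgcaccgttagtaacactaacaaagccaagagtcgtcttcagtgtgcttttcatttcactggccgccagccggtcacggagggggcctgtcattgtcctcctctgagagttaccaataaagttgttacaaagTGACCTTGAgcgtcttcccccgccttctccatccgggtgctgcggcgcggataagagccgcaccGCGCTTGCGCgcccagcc
Cox6b1: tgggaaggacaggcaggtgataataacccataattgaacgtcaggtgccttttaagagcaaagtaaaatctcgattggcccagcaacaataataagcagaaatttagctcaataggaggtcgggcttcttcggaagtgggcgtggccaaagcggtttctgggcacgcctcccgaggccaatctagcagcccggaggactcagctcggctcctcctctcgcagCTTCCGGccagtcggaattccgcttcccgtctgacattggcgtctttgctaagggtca
Cox6b2: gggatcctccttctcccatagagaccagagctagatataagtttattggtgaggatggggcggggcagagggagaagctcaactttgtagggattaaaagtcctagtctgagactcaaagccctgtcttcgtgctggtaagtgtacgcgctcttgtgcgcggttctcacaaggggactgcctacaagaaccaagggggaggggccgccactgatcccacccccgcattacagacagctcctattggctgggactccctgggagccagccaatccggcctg
Coa3: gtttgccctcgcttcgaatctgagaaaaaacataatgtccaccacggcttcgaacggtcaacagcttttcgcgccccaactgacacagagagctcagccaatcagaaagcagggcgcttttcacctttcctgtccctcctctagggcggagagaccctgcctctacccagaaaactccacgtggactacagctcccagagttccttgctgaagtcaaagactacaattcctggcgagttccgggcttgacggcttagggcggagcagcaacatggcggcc

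Among these windows, Atp5g2 held 1 NRF1 match, Atp5g3 held 1 NRF1 and 1 ERRA match, Cox6b1 held 1 ETS match, and Atp5g1, Cox6b2 and Coa3 held no match to these 4 motifs. RefSeq windows of 300 bases were matched for 70 of the 85 members. The NRF1 motif was in 16 of these 70 (22.9%), against 4.60% of all 32851 windows. The ETS motif was in 15 (21.4% against 8.86%), the YY1 motif in 7 (10.0% against 1.40%) and the ERRA motif in 2 (2.86% against 0.423%). NRF1, GABPA, YY1 and ERRA are transcription factors known for regulating nuclear genes of mitochondria, and the matches describe the letters of the windows only.

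Taken as one set, the nuclear-encoded genes held 2.67% of the UMIs of all kept cells in WT and 2.30% in cKO. In neuron-like cells the share was 2.68% (2.68 to 2.69) in WT and 2.32% (2.31 to 2.32) in cKO, a ratio of 0.863 (0.860 to 0.865). In progenitor-like cells it was 2.58% and 2.11% with a ratio of 0.818 (0.813 to 0.824), and in radial glia/astrocyte-like cells 2.61% and 2.36% with a ratio of 0.907 (0.90 to 0.915). The set was thus lower in the cKO library in each main class, by more than counting error. The typical gene was lower too, since the median gene with at least 100 UMIs had a log2 ratio of cKO over WT of -0.14 in neuron-like cells, -0.058 in progenitor-like cells and -0.033 in radial glia. The medians of the tested members on the same uncentred scale were -0.21, -0.27 and -0.11.

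As a sum, the mRNAs of the 13 protein-coding genes of mitochondrial DNA went the other way in the same cells. Together the 13 held 6.48% of UMIs in WT and 7.07% in cKO neuron-like cells, a ratio of 1.09. The ratios were 1.10 in progenitor-like and 1.05 (1.05 to 1.06) in radial glia/astrocyte-like cells. Not every single mRNA did so, and mt-Nd3 and mt-Nd6 were lower in cKO in each of these classes. For each nuclear respiratory chain UMI there were 2.41 mitochondrial UMIs in WT and 3.05 in cKO neuron-like cells, 1.99 and 2.67 in progenitor-like cells, and 1.62 and 1.88 in radial glia/astrocyte-like cells. Within neuron-like cells this quotient was 1.61 in WT and 2.04 in cKO for complex I, 2.97 and 4.36 for complex III, 4.74 and 5.57 for complex IV and 1.35 and 1.79 for complex V. With cells limited to at least 1000 genes and at most 5% mitochondrial UMIs, the mitochondrial share turned in direction, at 4.34% in WT and 3.21% in cKO neuron-like cells, while the nuclear share was again lower in cKO, at 2.85% and 2.07%. Mitochondrial UMIs were also used to filter cells, and the part of the cells' condition in this difference was not tested.

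Each class was also compared within 4 ranges of the cells' mitochondrial share. The nuclear share was lower in cKO in 11 of the 12 class and range combinations, with intervals apart in all 11. The exception was radial glia/astrocyte-like cells with 7 to 10% mitochondrial UMIs, 38 cells in WT at 2.43% and 42 in cKO at 2.49%. In the range of 5 to 7%, neuron-like cells held 2.68% in 1998 WT cells and 2.40% in 1108 cKO cells. At 0 to 3%, 45 WT and 193 cKO neuron-like cells held 2.15% and 1.79%.

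**Figure D1:**
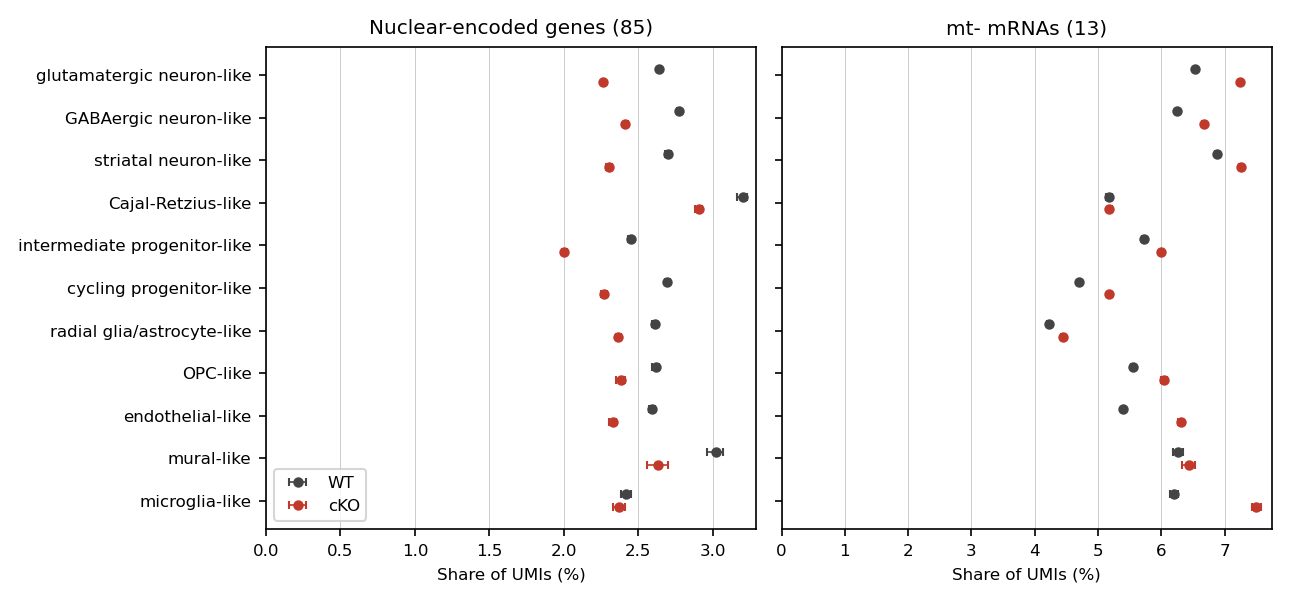
Share of all UMIs (%) in 11 cell classes held by the 85 nuclear-encoded genes (left) and the mRNAs of the 13 mitochondrial protein-coding genes (right). WT is in grey and cKO in red, with bars for the 95% interval of counting error. The cKO point lies left of the WT point in every class for the nuclear genes, with overlapping bars in microglia-like cells, and at or right of it for the mitochondrial mRNAs.

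Across the finer cell classes, 12 with ependymal-like cells included, the nuclear share was lower in cKO in 12 of 12, with intervals apart in 11. Microglia-like cells, which do not belong to the neural lineage, were the exception, at 2.42% (2.38 to 2.45) in 72 WT cells and 2.37% (2.33 to 2.41) in 36 cKO cells. Cajal-Retzius-like neurons, the early-born neurons of the outermost layer, had the highest nuclear share in both libraries, 3.20% in WT and 2.91% in cKO. Intermediate progenitor-like cells, at 2.45% and 2.00%, had the lowest share in cKO and, in WT, one close to that of microglia-like cells. Cycling progenitor-like cells held 2.69% and 2.27%, so the share was lower in cKO in both parts of the progenitor class. It was also lower in both clusters of the radial glia/astrocyte class, at 2.75% and 2.47% and at 2.46% and 2.31%. Endothelial-like cells (2.59% and 2.33%) and mural-like cells (3.02% and 2.63%) were also lower in cKO. The share was thus lower in cKO in vascular as well as in neural classes. The summed mitochondrial mRNAs were higher in cKO with intervals apart in 9 of 12 classes. They were lower in 1, the ependymal-like cells, of which only 40 and 13 were kept.

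Neurons and radial glia differed little in the nuclear genes and more in the mitochondrial ones. The nuclear share in neuron-like cells was 1.03 times that in radial glia/astrocyte-like cells in WT (1.02 to 1.04) and 0.980 times in cKO (0.973 to 0.986). The mitochondrial mRNAs were 1.53-fold higher in neuron-like cells in WT (1.53 to 1.54) and 1.59-fold higher in cKO (1.58 to 1.60). Over other cell filters and clusterings, the WT ratio for the nuclear genes ran from 0.974 to 1.11, so its direction was not fixed, and the cKO ratio ran from 0.885 to 0.980, below 1 in all 9 settings. The mitochondrial ratio ran from 1.22 to 2.00 in WT and from 0.936 to 1.94 in cKO, with the low ends under the filter of at least 1000 genes and at most 5% mitochondrial UMIs and the high ends with no mitochondrial limit. The size of that class difference, and in cKO its direction, thus varied with the cell filter.

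With members assigned to complexes by symbol, III was the lowest in cKO relative to WT. Complex II differed by less than counting error in neuron-like and progenitor-like cells. In neuron-like cells the ratios of UMI shares were 0.831 (0.827 to 0.835) for complex I, 0.999 (0.978 to 1.02) for complex II, 0.790 (0.783 to 0.798) for complex III, 0.899 (0.893 to 0.904) for complex IV and 0.902 (0.897 to 0.907) for complex V. Progenitor-like cells gave 0.775 (0.767 to 0.784), 0.976 (0.934 to 1.02), 0.764 (0.749 to 0.780), 0.863 and 0.852 in the same order. In radial glia/astrocyte-like cells complex II was higher in cKO, at 1.16 (1.09 to 1.22), while the other complexes ran from 0.824 for III to 0.939 for V. Complex III was the lowest of the 5 in each of the 3 classes, although its interval overlapped that of complex I in progenitor-like cells. Complex I so assigned includes Ndufa4, which is also described as a complex IV subunit. In progenitor-like cells Ndufa4 held 6803 of 69501 complex I UMIs in WT and 6902 of 53295 in cKO. With Ndufa4 left out of these counts, complex I lay below complex III in that class. The order of I and III there thus depends on where Ndufa4 is placed.

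Single members were compared as the log2 ratio of CPM, cKO over WT, centred on the median gene, for members with at least 100 UMIs in the class. A gene was counted as past 2-fold at a centred ratio of 1 or more in size. In neuron-like cells 1 of 77 members was at least 2-fold lower in cKO, where 11.9% of all genes tested were. In progenitor-like cells 7 of 76 were lower (10.5% of all genes), and in radial glia/astrocyte-like cells 3 of 79 (7.01%). With the stricter filter of at least 1000 genes and at most 5% mitochondrial UMIs per cell, 15 of 75 members were lower in neuron-like cells, where 10.1% of genes were. Within the ranges of 0 to 3, 3 to 5, 5 to 7 and 7 to 10% mitochondrial UMIs, in that order, 8 of 64, 4 of 75, 1 of 77 and 2 of 77 members were lower in neuron-like cells, against 4.43%, 7.70%, 10.3% and 11.4% of genes. The counts were 13 of 71, 6 of 75, 7 of 76 and 14 of 75 for progenitors, against 8.18%, 7.89%, 8.84% and 7.17%. For radial glia they were 4 of 74, 4 of 76, 4 of 75 and 1 of 57, against 4.44%, 6.24%, 3.86% and 3.63%. Whether the members lay above or below the background thus varied with the cells compared. No member was 2-fold higher in the comparison over all cells of each class, against 5.24%, 4.13% and 3.15% of all genes. Members are abundant genes, so they were also set beside genes of at least 50 CPM. There, 1 of 75 members was 2-fold lower in neuron-like cells against 2.68% of genes, 7 of 75 (9.33%) against 4.34% in progenitor-like cells, and 3 of 75 (4.00%) against 2.62% in radial glia/astrocyte-like cells.

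At the smaller size of -0.5 or less, 15 of 75 abundant members were lower in neuron-like cells where 10.8% of abundant genes were, 25 of 75 (33.3%) in progenitor-like cells against 15.0%, and 12 of 75 (16.0%) in radial glia/astrocyte-like cells against 13.2%. Set beside all genes tested, the members at -0.5 or less were 16 of 77 (20.8%) against 25.5% in neuron-like cells, 25 of 76 (32.9%) against 24.7% in progenitor-like cells and 13 of 79 (16.5%) against 20.5% in radial glia/astrocyte-like cells. Whether the members' share lay above or below the background thus depended, in the first and the last of these classes, on the genes they were set beside, and the limit of 50 CPM was chosen after seeing the data. Only 2, 1 and 0 of the abundant members reached 0.5 or more, against 21.1%, 20.7% and 16.2% of abundant genes. The medians of all tested members were -0.067 (quartiles -0.40 and 0.13) in neuron-like, -0.21 in progenitor-like and -0.073 in radial glia/astrocyte-like cells. Of the 76 members tested in all 3 classes, 37 (48.7%) lay below the median gene in all 3, where 33.4% of all genes did, and 15 (19.7%) above it in all 3, where 37.7% did.

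**Figure D2:**
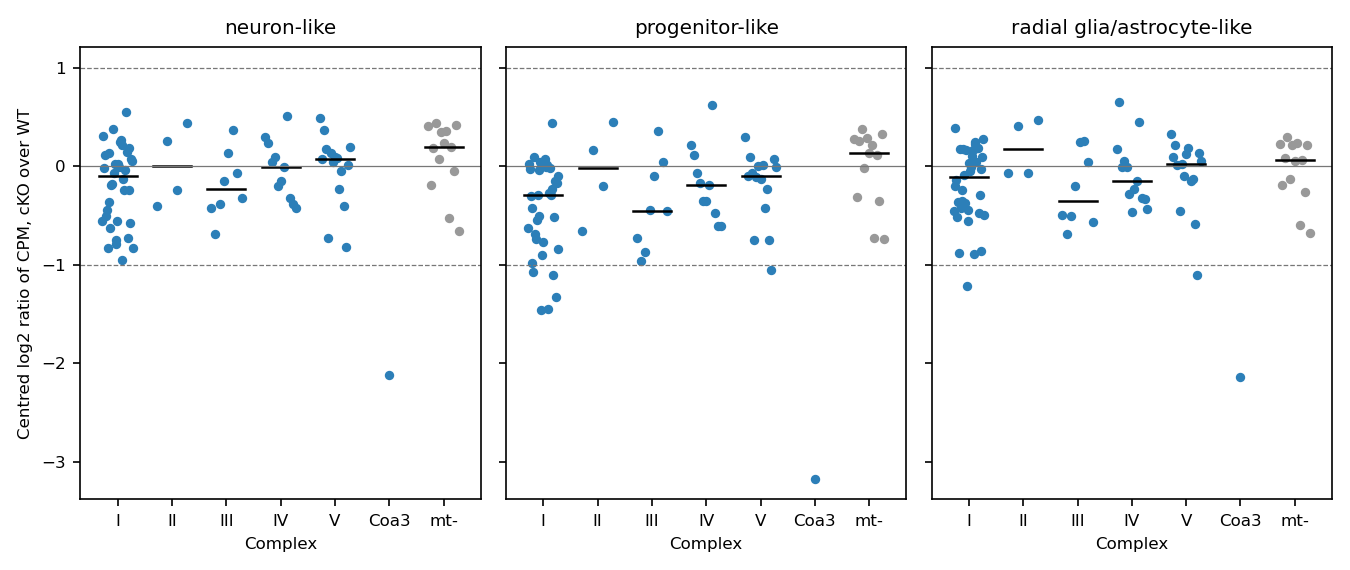
Centred log2 ratio of CPM, cKO over WT, by complex in 3 cell classes. Blue points are the tested members except Atp5s and Atp5sl, and grey points are the 13 mitochondrial genes. Black bars mark the group medians and dashed lines 2-fold. Coa3 lies apart from the other members, at -2.12 in neuron-like, -3.17 in progenitor-like and -2.14 in radial glia/astrocyte-like cells.

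Coa3, a small inner-membrane protein needed to assemble complex IV around its mitochondrially made subunit COX1, showed the lowest ratio of all tested members in all 3 classes. It had 6022 UMIs in WT and 1408 in cKO neuron-like cells, or 189 CPM (184 to 194) and 39.6 CPM (37.5 to 41.7), a centred log2 ratio of -2.12 (-2.20 to -2.04). In progenitor-like cells it had 1149 and 121 UMIs, 144 and 15.3 CPM, with a ratio of -3.17 (-3.46 to -2.90). In radial glia/astrocyte-like cells it had 680 and 136 UMIs, 145 and 32.0 CPM, with a ratio of -2.14 (-2.42 to -1.88). Among all genes tested, 204 of 11686 (1.75%) were as low or lower in neuron-like cells, 16 of 9568 (0.167%) in progenitor-like cells and 50 of 8517 (0.587%) in radial glia/astrocyte-like cells, Coa3 itself counted. Coa3 was added to the members by name with earlier results known, so its place among them is a description.

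Coa3 was low in cKO in neural and non-neural classes alike. In WT its level lay between 132 CPM in OPC-like cells and 202 CPM in Cajal-Retzius-like cells, a narrow range. In cKO it ran from 11.1 CPM in intermediate progenitor-like cells (156 in WT) to 84.4 CPM in ependymal-like cells (133 in WT). Glutamatergic neuron-like cells had 198 and 42.1 CPM, GABAergic neuron-like cells 161 and 22.8, and striatal neuron-like cells 175 and 31.4. Within the progenitor class the centred log2 ratio was -3.79 in intermediate and -2.66 in cycling cells (134 and 21.2 CPM). Endothelial-like cells had 162 and 28.2 CPM, a centred log2 ratio of -2.47 (-2.98 to -2.02), and microglia-like cells 133 and 43.6, a ratio of -1.58 (-2.36 to -0.92). The interval included 0 only in ependymal-like cells, at -0.64 (-1.46 to 0.051), with 13 cKO cells. Within the 12 combinations of class and mitochondrial share, the centred ratio of Coa3 lay between -3.62 and -1.91.

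Coa3 (ENSMUSG00000017188) lies at chr11:101277968-101279114 on the minus strand of GRCm38 and overlaps Cntd1 on the opposite strand. Whether counting used strand was not given in the sources used here, so reads of the overlap cannot be assigned with certainty. Its coding sequence is 324 bases long. Among genes with coding lengths of 250 to 350 bases, 4 of 255 were as low or lower in neuron-like cells, 1 of 231 in progenitor-like cells and 1 of 221 in radial glia/astrocyte-like cells, Coa3 itself included.

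Complex I members spread the most widely. Ndufc1, an accessory subunit of the membrane arm, was the lowest in neuron-like cells, with 284 CPM in WT and 134 in cKO and a centred log2 ratio of -0.95 (-1.0 to -0.90), just inside 2-fold. It passed 2-fold in progenitor-like cells, at 298 and 105 CPM and -1.45 (-1.57 to -1.34). Ndufb2, an accessory subunit of the membrane arm, had 151 and 52.6 CPM in progenitor-like cells, a ratio of -1.46, and 162 and 68.2 CPM in radial glia/astrocyte-like cells, a ratio of -1.22. The intervals of both genes excluded 0 in all 3 classes. A stretch of the Ndufc1 transcript of at least 100 bases matched 6 other listed genes, among them Chek2 and Sirt5, at 95% identity or more. Its effect on the counts was not tested.

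Ndufs8, a core subunit that carries iron-sulphur clusters, had 92.8 CPM in WT and 35.4 in cKO progenitor-like cells, a ratio of -1.33 (-1.54 to -1.13). Ndufs5 and Ndufa3, both accessory subunits, were at -1.10 (304 and 137 CPM) and -1.07 (137 and 62.6 CPM) in the same cells. In neuron-like and radial glia/astrocyte-like cells these 3 genes lay between -0.88 and -0.48. The highest complex I member in neuron-like cells was Ndufs3, a core subunit of the peripheral arm, with 160 and 214 CPM in neuron-like cells and a ratio of 0.55 (0.50 to 0.60). It was at 0.44 in progenitor-like and 0.18 in radial glia/astrocyte-like cells, where Ndufa10 was the highest at 0.39. The core subunits Ndufs8 and Ndufs3 thus lay on opposite sides of the median gene.

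The 4 complex II genes did not move together, although their sum differed by less than counting error in neuron-like cells. Sdha, the flavoprotein that oxidises succinate, had 73.9 CPM in WT and 50.9 in cKO neuron-like cells, a ratio of -0.40 (-0.49 to -0.31). Sdhd, a membrane anchor, had 94.8 and 117 CPM, a ratio of 0.44 (0.37 to 0.51). Sdhb, the iron-sulphur subunit, was at 0.25 (0.21 to 0.29) and Sdhc, the other anchor, at -0.24 (-0.33 to -0.16). In radial glia/astrocyte-like cells Sdha and Sdhc were near 0, at -0.071 (-0.25 to 0.11) and -0.073 (-0.25 to 0.11), while Sdhb and Sdhd were at 0.41 and 0.47.

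In complex III, Uqcr11, a small subunit, was the lowest in neuron-like cells, at 390 CPM in WT and 219 in cKO with a ratio of -0.69 (-0.73 to -0.65). It reached -0.96 in progenitor-like and -0.69 in radial glia/astrocyte-like cells. Uqcrfs1, the Rieske iron-sulphur protein that passes electrons to cytochrome c1, was the highest, at 249 and 293 CPM in neuron-like cells with a ratio of 0.37 (0.33 to 0.42). The medians of the 8 members were -0.24, -0.46 and -0.35 in the 3 classes.

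Among the complex IV subunits tested in neuron-like cells, Cox8a was the lowest, at 676 CPM in WT and 461 in cKO with a ratio of -0.42 (-0.44 to -0.39). Cox7a2l, counted here by its name, was the highest, at 308 and 399 CPM with a ratio of 0.51 (0.48 to 0.55). It stood at 0.62 in progenitor-like and 0.45 in radial glia/astrocyte-like cells. Coa3 lay far below the subunits of the complex it helps to assemble, whose median was -0.0054 in neuron-like, -0.19 in progenitor-like and -0.15 in radial glia/astrocyte-like cells.

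In complex V, Atp5k, the e subunit of the membrane part, was the lowest, at 365 CPM in WT and 188 in cKO neuron-like cells with a ratio of -0.82 (-0.86 to -0.78). It passed 2-fold in progenitor-like cells, at 295 and 137 CPM and -1.05, and in radial glia/astrocyte-like cells, at 309 and 141 CPM and -1.10. Atp5a1, the alpha subunit of the catalytic head, which binds nucleotide, was the highest, at 460 and 587 CPM in neuron-like cells with a ratio of 0.49 (0.46 to 0.52). In all, 9 members were at -0.5 or less in all 3 classes, namely Coa3, Ndufa3, Ndufa13, Ndufb2, Ndufb4, Ndufc1, Ndufs8, Uqcr11 and Atp5k. These were 11.8% of the 76 members tested in all 3, and 11.2% of all genes tested there were at -0.5 or less in each class, so the members' share was near the background.

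The members with short coding sequences had the lower ratios. Across the 77 members tested in neuron-like cells, coding length and centred ratio had a Spearman correlation of 0.51, and it was 0.44 over 76 members in progenitor-like and 0.56 over 79 in radial glia/astrocyte-like cells. Over all genes the values were 0.095, 0.11 and 0.082. Genes are not independent replicates, and all ratios share the same pair of libraries. In neuron-like cells the 13 members under 250 bases had a median of -0.42, where all 153 genes of that length had -0.40. At 250 to 350 bases the medians were -0.36 for 17 members and -0.21 for 255 genes, and at 350 to 500 bases 0.031 for 16 members and -0.045 for 626 genes. In progenitor-like cells the 2 shortest ranges gave -0.61 and -0.55 for members against -0.48 and -0.26 for genes. Short genes as a whole thus had lower ratios too, and the median coding length of the members was 408 bases.

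**Figure D3:**
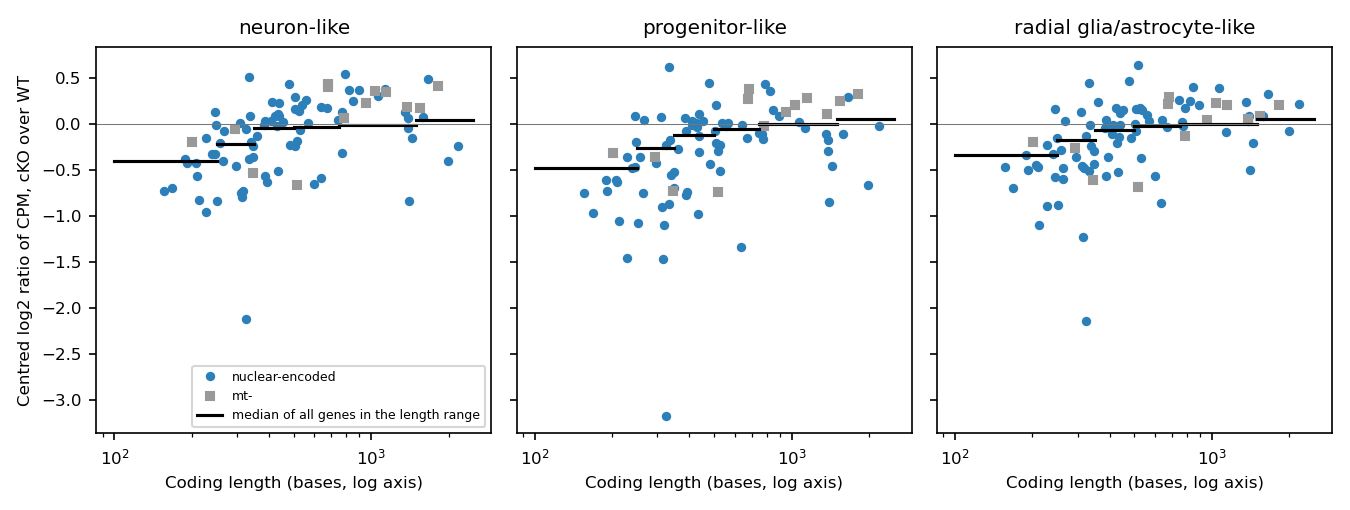
Centred log2 ratio of CPM, cKO over WT, against coding length in bases (log axis) for nuclear-encoded members (blue circles) and mitochondrial mRNAs (grey squares) in 3 cell classes, with black lines at the median of all genes tested in each length range. The medians of the shortest length ranges lie below 0 in each panel, and Coa3 lies far below the line for its length.

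Among the mitochondrial genes ratio and coding length also rose together. The lowest ratios, though, were those of mt-Nd6 and mt-Nd3 and not those of the genes with the shortest coding sequences, mt-Atp8 and mt-Nd4l. In neuron-like cells mt-Nd3 had 856 CPM in WT and 537 in cKO, a centred ratio of -0.53, and mt-Nd6, the one gene of the other strand, 24.6 and 14.1 CPM, a ratio of -0.66 (-0.83 to -0.50). The short mt-Atp8 was at -0.19 and mt-Nd4l at -0.053. The remaining 9 lay between 0.071 for mt-Co3 (-0.067 before centring) and 0.44 for mt-Co2, which had 9624 and 11855 CPM. The Spearman correlation with coding length over the 13 genes was 0.55 in neuron-like, 0.63 in progenitor-like and 0.53 in radial glia/astrocyte-like cells. In the annotation mt-Atp8 overlaps mt-Atp6, and mt-Nd4l overlaps mt-Nd4, on the same strand. Reads of these pairs may thus not be told apart, and the effect on these values was not tested.

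Sex differed between the libraries, so the 3 members on chromosome X were read separately. Ndufa1 had 151 CPM in WT and 93.2 in cKO neuron-like cells, a centred ratio of -0.56 (-0.62 to -0.50), Cox7b had 359 and 260, a ratio of -0.32, and Ndufb11 258 and 238, a ratio of 0.023 (-0.021 to 0.067) that was -0.11 before centring. The 401 X-linked genes tested had a median of -0.016. Without these 3, the 74 autosomal members had a median of -0.057 in neuron-like cells.

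Several subunits exist as isoforms, and some of these differed between cell classes in both libraries. Others differed between libraries, such as Cox7a2l, which held 31.1% of the UMIs of the Cox7a set in WT and 39.3% in cKO neuron-like cells, 34.6% and 48.2% in progenitor-like cells, and 45.7% and 62.5% in endothelial-like cells. Microglia-like cells had 50.3% (46.0 to 54.5) and 46.5% (41.7 to 51.4), and ependymal-like cells 23.2% and 26.6%, both with overlapping intervals. Ndufa4, which carries a complex I name and is also described as a complex IV subunit, was broadly expressed, at 931 CPM in WT and 925 in cKO neuron-like cells. Its paralog Ndufa4l2, known as a hypoxia-induced gene and a pericyte marker, was at 692 CPM (609 to 783) in WT and 660 (556 to 778) in cKO mural-like cells. It was at 219 and 103 CPM in endothelial-like cells and at 0.816 and 0.0843 in neuron-like cells. In mural-like cells Ndufa4 was at 600 CPM in WT and 237 in cKO, from 216 and 51 UMIs, so Ndufa4l2 made up 53.5% (48.9 to 58.2) and 73.6% (66.8 to 79.6) of the UMIs of the pair. The level of Ndufa4l2 there varied with the processing, from 368 to 1035 CPM in WT and from 274 to 816 in cKO, and the direction between libraries turned when each was clustered alone, with 369 CPM in WT and 805 in cKO. With cells thinned to 1000 UMIs, Ndufa4l2 was detected in 38.3% of 47 WT and 45.7% of 35 cKO mural-like cells (46.3% of 67 and 55.3% of 47 before thinning, at median depths of 3144 and 4828 UMIs). It was detected in 0 of 69 and 0 of 34 microglia-like cells at the same depth, which allows shares of up to 4.35% and 8.82% of cells with an Ndufa4l2 UMI at that depth and sets no limit on cells that express it, with median depths of 9175 and 11953 UMIs before thinning.

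Cox4i2, the isoform of subunit 4 known from lung and oxygen sensing, followed the same vascular pattern. It was at 328 CPM (271 to 393) in WT and 274 (209 to 354) in cKO mural-like cells, and at 106 and 67.6 CPM in endothelial-like cells. Radial glia/astrocyte-like cells had 24.1 CPM (19.8 to 28.9) in WT and 36.9 (31.4 to 43.2) in cKO, with intervals apart. That class was made of 2 clusters, one led by Id3, Aqp4 and Pla2g7 (324 WT and 170 cKO cells) and one led by Aldoc, Mt3 and Notch2 (329 and 318), so its make-up differed between libraries. Within the first Cox4i2 was at 9.86 CPM (6.25 to 14.8) in WT and 9.95 (5.44 to 16.7) in cKO, and within the second at 38.1 (30.6 to 46.8) and 50.3 (42.4 to 59.2), with overlapping intervals in both. Neuron-like cells had 0.251 and 0.140 CPM from 8 and 5 UMIs. The common isoform Cox4i1 was at 1164 and 1385 CPM in mural-like and 925 and 1035 CPM in neuron-like cells, and thus no lower in the cells that held Cox4i2.

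Cox6b2, known as a testis isoform, was at 298 CPM (261 to 340) in 40 WT and 235 (176 to 308) in 13 cKO ependymal-like cells. It was at 13.4 and 9.41 CPM in radial glia/astrocyte-like cells and at 1.07 and 0.590 CPM in neuron-like cells. Its common counterpart Cox6b1 was at 538 and 453 CPM in ependymal-like cells and 614 and 487 CPM in neuron-like cells. Over all kept cells Cox6b2 passed 2-fold (-1.17), as did Ndufa4l2 (-1.64) and Cox7a1 (-1.49), making 4 members with Coa3, where 12.6% of all genes were 2-fold lower, and 0 members were 2-fold higher, where 4.80% were. The classes that held most of the Cox6b2 and Ndufa4l2 UMIs in WT had fewer cells in cKO, with 72 endothelial-like against 179 and 13 ependymal-like against 40. Cox7a1 had 118 UMIs in WT and 35 in cKO, of which neuron-like cells held 73 and 22. The part of these cell numbers in the values over all cells was not tested.

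Cox8a, the ubiquitous isoform of subunit 8, differed between neuron types. Striatal neuron-like cells had 366 CPM (345 to 388) in WT and 230 (212 to 248) in cKO, below neuron-like cells as a whole at 676 and 461, and mural-like cells were the highest at 1248 and 995 CPM. The muscle isoforms were scarce. Cox6a2 had 40 and 46 UMIs in neuron-like cells (1.26 and 1.29 CPM), and 0 in progenitor-like cells of either library. Cox7a1 reached 13.9 CPM (7.59 to 23.3) in WT and 7.24 (3.47 to 13.3) in cKO Cajal-Retzius-like cells, from 14 and 10 UMIs, while Cox7a2 was at 680 and 616 CPM and Cox6a1 at 388 and 375 CPM in neuron-like cells.

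Atp5g1, Atp5g2 and Atp5g3 encode the same mature c subunit, the ring that turns as protons pass, from different precursors. Atp5g2 was at 947 CPM (918 to 975) in WT and 897 (865 to 930) in cKO cycling progenitor-like cells and at 669 and 708 CPM in radial glia/astrocyte-like cells, but at 482 (475 to 490) and 468 (461 to 475) in neuron-like cells. Atp5g1 ran the other way, at 393 and 338 CPM in cycling progenitor-like cells, 305 and 277 in radial glia/astrocyte-like cells and 540 and 505 in neuron-like cells. Atp5g3 was at 307 and 318 CPM in cycling progenitor-like and 349 and 337 CPM in neuron-like cells. Of the UMIs of the 3 genes, Atp5g1 held 23.8% (22.9 to 24.8) in WT and 21.7% (20.6 to 22.9) in cKO cycling progenitor-like cells, and 39.4% (38.9 to 39.9) and 38.5% (38.1 to 39.0) in neuron-like cells. The share was higher in neuron-like than in cycling progenitor-like cells in both libraries. It was not uniform among the finer classes, with 41.7% and 40.8% in glutamatergic neuron-like, 32.6% and 34.7% in GABAergic neuron-like and 34.8% and 28.3% in Cajal-Retzius-like cells, beside 28.8% and 31.6% in intermediate progenitor-like cells. Of the promoter windows printed above, those of Atp5g2 and Atp5g3 hold an NRF1 match and that of Atp5g1 holds none. A link between these matches and the levels was not tested.

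**Figure D4:**
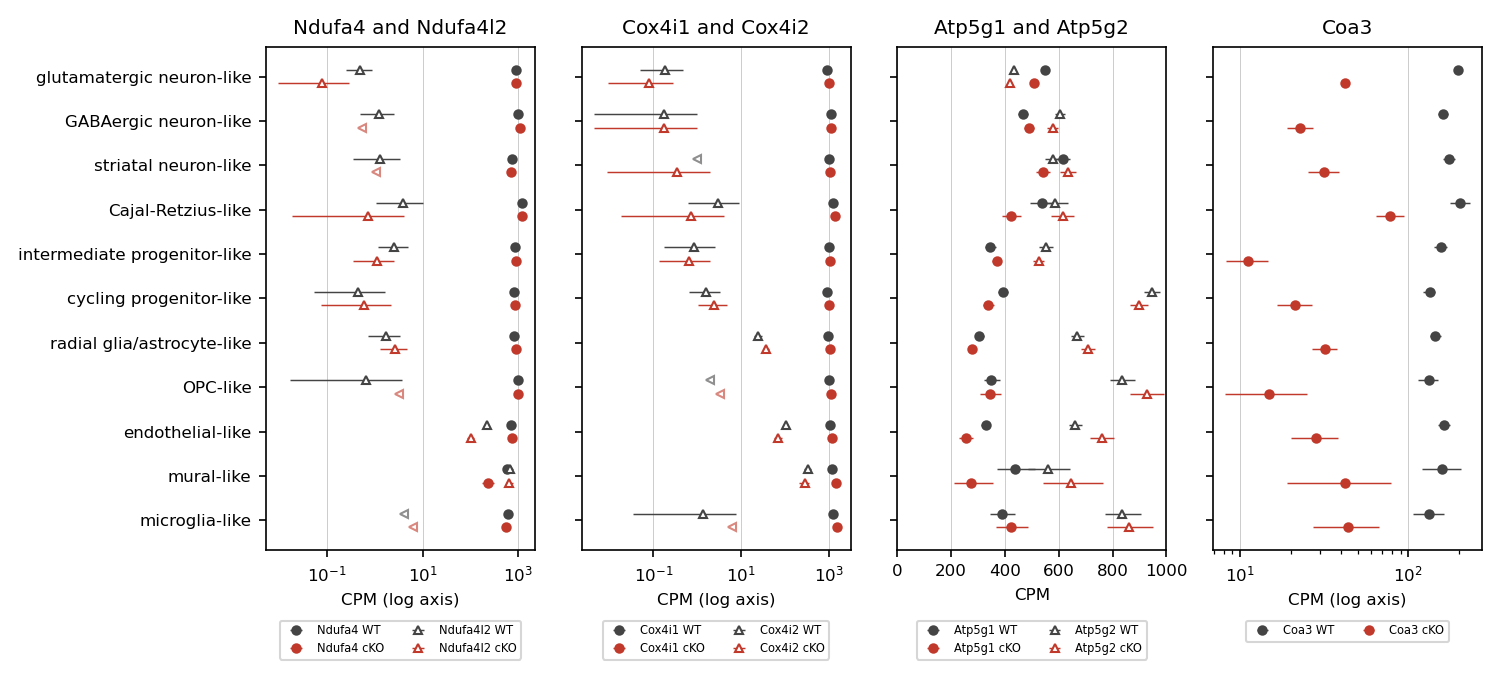
CPM of Ndufa4 and Ndufa4l2, Cox4i1 and Cox4i2 (log axes), Atp5g1 and Atp5g2 (linear axis from 0) and Coa3 (log axis) in 11 cell classes, with WT in grey, cKO in red, bars for 95% Poisson intervals and triangles pointing left for the limit of 3 UMIs where none was counted. Ndufa4l2 and Cox4i2 are highest in mural-like cells in both libraries, and Coa3 is lower in cKO in all 11 classes.

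For most members the classes differed modestly. Over 11 classes, without ependymal-like cells, the median member had a highest level 1.68 times its lowest in WT and 1.96 times in cKO. For this, 10 CPM was added to each level. Among these classes only Cox4i2, Ndufb2, Ndufa4l2 and Cox8a reached 3-fold in both libraries. The range of Cox6b2 is understated here. It held 35.7% of Cox6b1 and Cox6b2 UMIs in WT and 34.2% in cKO ependymal-like cells, against 0.0882% and 0.0646% in glutamatergic neuron-like cells. The highest class was Cajal-Retzius-like for 41 of 82 members in WT and 33 in cKO, 25 of them shared, and mural-like for 16 in each, 8 of them shared. Intermediate progenitor-like cells were the lowest class for 15 members in WT and 27 in cKO, and microglia-like cells for 26 in WT and 8 in cKO. The lowest class was the same in both libraries for 38 of 82 members and the highest for 48. These extremes were picked without regard to counting error, which was larger in small classes. Mural-like cells held 359849 UMIs in WT and 215125 in cKO, against 22094953 and 25692045 in glutamatergic neuron-like cells. The order of classes had a median Spearman correlation between libraries of 0.74 per member. Cajal-Retzius-like cells were also deep, with median counts of 15334 and 17006 UMIs, and its part in their place was not tested.

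Other genes of the pathway were taken from lists of assembly factors and related proteins. Of 15 complex I assembly factors tested in neuron-like cells, 2 (Tmem126b and Nubpl) were 2-fold lower and 0 higher, with a median of -0.37. Of 4 for complex II, 3 (Sdhaf1, Sdhaf2 and Sdhaf3) were lower, with a median of -1.15. Of 6 for complex III, 4 (Bcs1l, Lyrm7, Uqcc2 and Uqcc3) were lower, with a median of -1.35. Of 20 for complex IV, 6 (Cox17, Cox20, Coa6, Cmc2, Pet100 and Taco1) were lower, with a median of -0.35, so that Coa3 was not alone among the assembly factors of its complex. The background of 11.9% lower applies to each of these counts, and many of these genes are short or of low level. The mitochondrial ribosome, which makes the mitochondrially encoded subunits, had 12 of 76 genes lower and a median of -0.34, while the cytosolic ribosome had 0 of 82 and a median of 0.21. For 16 glycolytic genes the count was 1 lower (Pfkl) and the median -0.058.

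In progenitor-like cells the assembly factor medians were -0.65 for complex I, -0.64 for II, -1.08 for III and -0.60 for IV, and in radial glia/astrocyte-like cells -0.41, -0.99, -0.59 and -0.47. Pet100, Cmc2, Coa6 and Cox17, all complex IV assembly factors, were 2-fold lower in all 3 classes. So were Sdhaf3 of the complex II list, Uqcc2 of the complex III list and Slirp of the mitochondrial transcription list. The same held for the mitochondrial ribosome genes Mrpl14, Mrpl17, Mrpl34, Mrpl36, Mrpl47, Mrpl49, Mrps15, Mrps21 and Mrps25. Of all genes tested in all 3 classes, 3.36% were 2-fold lower in each, and of the respiratory chain genes Coa3 alone. Among the mitochondrial transcription genes and their nuclear regulators, 3 of 11 (Polrmt, Slirp and Esrra) were lower and 2 (Gabpa and Ppargc1b) higher in neuron-like cells, where 11.9% of all genes were lower and 5.24% higher, with a median of 0.19. For complex V, 4 assembly and regulation genes had medians of -0.23 in neuron-like, -0.21 in progenitor-like and 0.092 in radial glia/astrocyte-like cells. Its subunits had 0.076, -0.10 and 0.026. Assembly factors thus had lower medians than the subunits of complexes I to IV in all 3 classes, but for complex V not in radial glia/astrocyte-like cells. These lists were not set beside genes of like level or length.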

How the data were processed

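Single-cell RNA sequencing of 1 WT and 1 cKO library was analysed, grouped by the genotype in the labels. The deposited matrices hold raw, unnormalized UMI counts per gene and barcode, 1 matrix for each library, and no barcode had fewer than 502 UMIs. The submitters' processing notes name STAR, Cell Ranger 2, Seurat and mm9, whereas the file headers name Cell Ranger 3.0.1, so the build of the counts is not certain, and whether counting used strand is not given in the sources used here. Tables that repeat the counts were not used.

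Cells with at least 500 genes and at most 10% mitochondrial UMIs were kept. Doublets with a Scrublet score above 0.25 were removed (2.23% of WT and 1.76% of cKO cells), and this threshold was chosen after seeing the data, since the automatic one called 0 in cKO. Clustering used scanpy 1.11.5 and the Leiden method of igraph 0.11.9 on 2000 variable genes, centred and scaled within each library. It used 30 principal components, 15 neighbours and resolution 1. Respiratory chain, mitochondrial, ribosomal, haemoglobin and sex-linked genes were left out of clustering. Of 28 clusters, 24 were named from markers, by a naming rule refined after seeing the data. Without centring, 9 of 27 clusters came from 1 library by over 90% and held 45.6% of cells.

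UMIs were summed per class and library. Ratios of CPM had 0.5 UMIs added and were centred on the median gene with at least 100 UMIs in both libraries together. Intervals were exact Poisson for UMI sums, exact conditional binomial for ratios and Clopper-Pearson for shares (95%). UMIs are counts of molecules, and the intervals leave out variation between cells of a class and between animals. No test was run with 1 library per group. The ratio code was tested on simulated data. Coordinates and coding lengths came from GENCODE M21 (GRCm38), matched by gene ID for 27722 of 27998 genes, and promoters from RefSeq (GRCm38.p6), so neither came from the files. Near-identical stretches in other genes, of at least 100 bases at 95% identity, were sought with BLAST 2.17.0. They were found for 24 members, for 5 of them in other listed genes. A shared stretch need not be a copy of the gene. Another gene on the opposite strand overlaps 30 members. TMM factors came from edgeR 4.0.16 in R 4.3.3.

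Members, gene lists and comparisons were chosen with earlier results of these data known. Genes were named by rule: Coa3, members past 2-fold in a main class, the highest and lowest member of each complex in neuron-like cells, isoform sets, X-linked members, the Sdh genes and mitochondrial mRNAs. Members at -0.5 or less in all 3 classes and the list genes past 2-fold were named after their values were seen. Alternatives were other cell filters, doublet handling, clusterings and naming, scalings and UMI minimums.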

Additional observations from a re-analysis of the deposited data

How the results depend on the processing

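No paired analysis was possible because each group has 1 library, and for the same reason no replicate could be left out. Of 223 values recomputed under alternatives, 158 stayed within the main value's counting interval or within 1.5 times its count, 65 moved beyond it and 0 reversed. For member medians the typical interval of a single member's ratio was used. A reversal could be counted only for a main log2 ratio of at least 1 in size, which here was that of Coa3 alone. Shares and levels were recomputed for 1 library at a time, so a turn between libraries or classes is not counted there. With at least 1000 genes and at most 5% mitochondrial UMIs, set together, the mitochondrial share in neuron-like cells turned to lower in cKO, and its ratio of neuron-like to radial glia/astrocyte-like cells in cKO turned from 1.59 to 0.936. The cause was not tested. The values that moved follow, with counts of members 2-fold lower in cKO, centred log2 ratios, and shares in neuron-like cells as WT and cKO. With no mitochondrial limit, 2 members were lower in neuron-like cells, Coa3 was at -2.03, the nuclear share at 2.56% and 2.22%, the mitochondrial share at 8.80% and 9.25%, and Ndufa4l2 in mural-like cells at 1035 and 816 CPM. With at least 1000 genes and at most 5% mitochondrial UMIs, 15 members were lower in neuron-like cells, their median was -0.54 and Coa3 at -2.84. The median was then -0.40 and Coa3 at -2.58 in progenitor-like cells, 5 members were lower in radial glia/astrocyte-like cells, and the shares were 2.85% and 2.07% (nuclear) and 4.34% and 3.21% (mitochondrial). Without doublet removal, 2 members were lower in neuron-like cells, Coa3 was at -2.25 there and at -2.68 in progenitor-like cells, and the shares were 2.66% and 2.28%, and 6.43% and 6.99%. At resolution 0.5 the cKO shares were 2.31% and 7.05%. At resolution 2 the shares were 2.67% and 2.29%, and 6.44% and 7.0%, with Ndufa4l2 at 368 and 274 CPM. With joint clustering without centring, Coa3 was at -2.88 in progenitor-like cells and the shares were 2.72% and 2.30%, and 6.43% and 6.97%. With each library clustered alone, 2 members were lower in neuron-like cells, Coa3 was at -2.89 in progenitor-like cells, the shares were 2.67% and 2.31%, and 6.45% and 7.03%, and Ndufa4l2 was at 369 and 805 CPM. With cells named by marker score, Coa3 was at -2.75 in progenitor-like cells, the WT nuclear share was 2.69%, the mitochondrial shares were 6.37% and 6.98%, and Ndufa4l2 was at 585 and 462 CPM. Without centring of the ratios, 2 members were lower in neuron-like cells, the median was -0.21 and Coa3 at -2.26, and of all genes past 2-fold there 80.9% were lower in cKO, against 69.5% with centring. As a mean over cells, 3 were lower, the median was -0.13 and Coa3 at -2.63, with -3.49 in progenitor-like cells. Without a UMI minimum, 3 of 84 were lower and 1 higher in neuron-like cells, where 20.2% of all genes were lower (11.9% with it), and 5 of 83 lower and 1 higher in radial glia/astrocyte-like cells, where 17.3% were lower (7.01% with it). As a share of UMIs without mitochondrial, ribosomal and haemoglobin genes, the nuclear genes held 3.24% and 2.83%. Over the 14 alternatives run for it, which leave out the minimum of 50 UMIs, the member median stayed below 0, from -0.54 to -0.03 in neuron-like, -0.40 to -0.13 in progenitor-like and -0.14 to -0.01 in radial glia/astrocyte-like cells, and over 13, with neither other UMI minimum, Coa3 stayed at -2.03 or lower in these classes. The comparisons within ranges of mitochondrial share, within clusters of the radial glia/astrocyte class and among genes of at least 50 CPM were chosen after seeing the data.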
